A study of Mus musculus with 4 samples.

Results

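Macrophages, monocytes and neutrophils are myeloid cells, and the 39 genes described here are genes by which such cells are recognised or with which they do their work. They were chosen by name, as markers and effector genes of the myeloid lineage, with earlier results of these data known. All 39 were found among the 24527 gene symbols of the count table. They were grouped into 11 roles, from leukocyte identity and growth factor receptors to Fc receptors, complement C1q, the phagocyte oxidase, lysosomal and secreted proteins, arginase and calprotectin.

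RNA was sequenced from B16F10, a mouse melanoma cell line, in 4 conditions with 1 library each. The spheroid library came from melanoma cells grown in hanging drops together with NIH/3T3, a mouse fibroblast line, the 2D co-culture library from both lines grown on plastic, and the 2D monoculture library from a B16F10 monolayer, labelled as the control. The methods of the study describe a B16F10 line with green fluorescent protein and the sorting of green, live cells from the cultures, so that neither fibroblasts nor leukocytes were meant to enter these libraries. The 2D co-culture library nevertheless held fibroblast markers: Col1a2, a collagen gene, had 514 CPM there against 2.97 CPM in the 2D monoculture, and 9 fibroblast genes summed to 679 CPM in the 2D co-culture, against 36.5 CPM in the spheroid library and 17.6 CPM in the 2D monoculture. The tumor library came from a melanoma grown under the skin of female C57BL/6 mice about a year old, hosts with an intact immune system. Its label describes a snap frozen tumor, whereas the methods speak of sorted cells, and the labels give the genotype WT in all conditions. The methods speak of replicate RNA isolations, but each condition has 1 column of counts, and whether a library is a pool is not stated in the sources used here. No condition has a replicate among the counts, so no difference has a replicate check, no p-value is given, and every interval is a 95% interval that covers counting error only.

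Macrophages of a tumor derive mostly from blood monocytes, which enter tissue through CCR2 and its ligand CCL2 and survive on CSF1, the ligand of the receptor encoded by Csf1r. The transcription factor PU.1, encoded by Spi1, switches on most genes of this lineage. Mature macrophages carry scavenger, lectin and Fc receptors for the uptake of debris and antibody-coated particles, pass the signal of many of these receptors through the adaptors TYROBP and FCER1G, digest what they take up with lysosomal enzymes, kill with the superoxide of an NADPH oxidase and secrete complement C1q, lysozyme and apolipoprotein E. The pigment organelle of melanocytes and melanoma cells is related to the lysosome.

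The libraries held between 118896900 and 150028663 reads on genes. Counts were scaled with edgeR's TMM factors to CPM, the reads on a gene relative to a common library total, and a gene without a read could still have up to 3 reads, or 0.0185 to 0.0262 CPM. The summed level of 8 melanocyte markers was 18928 CPM in the tumor, against 16039 CPM in the 2D monoculture, 10642 CPM in the spheroid library and 14320.1 CPM in the 2D co-culture, and none of the 8 was at 0 in any library. Single markers differed in direction. Mlana, Tyr, Tyrp1, Dct and Mitf were higher in the tumor than in the 2D monoculture, whereas Pmel, S100b and Sox10 were lower. Sox10 had 237 CPM in the tumor against 834 CPM in the 2D monoculture, and Mitf had 70.3 CPM in the spheroid library against 416 CPM in the 2D monoculture.

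In the tumor library, 797059 reads lay on the 39 genes, which was 0.571% of its reads. In the cultures the share was 0.0671% for the 2D monoculture, 0.0627% for the spheroid and 0.0754% for the 2D co-culture. Most of the culture reads belonged to a single gene, since Apoe made up 92.3% of the summed CPM of the 39 genes in the 2D monoculture, 86.8% of the spheroid and 93.5% of the 2D co-culture, and 26.3% in the tumor. All 39 genes reached 1 CPM in the tumor, where 32 exceeded 10 CPM and 10 exceeded 100 CPM. In the 2D monoculture, 5 genes reached 1 CPM, 23 had at most 3 reads, and 10 of these had no read at all. The 34 genes under 1 CPM in the 2D monoculture summed to 2415 CPM in the tumor and 1.99, 6.09 and 6.87 CPM in the 2D monoculture, the spheroid and the 2D co-culture.

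**Figure D1:**
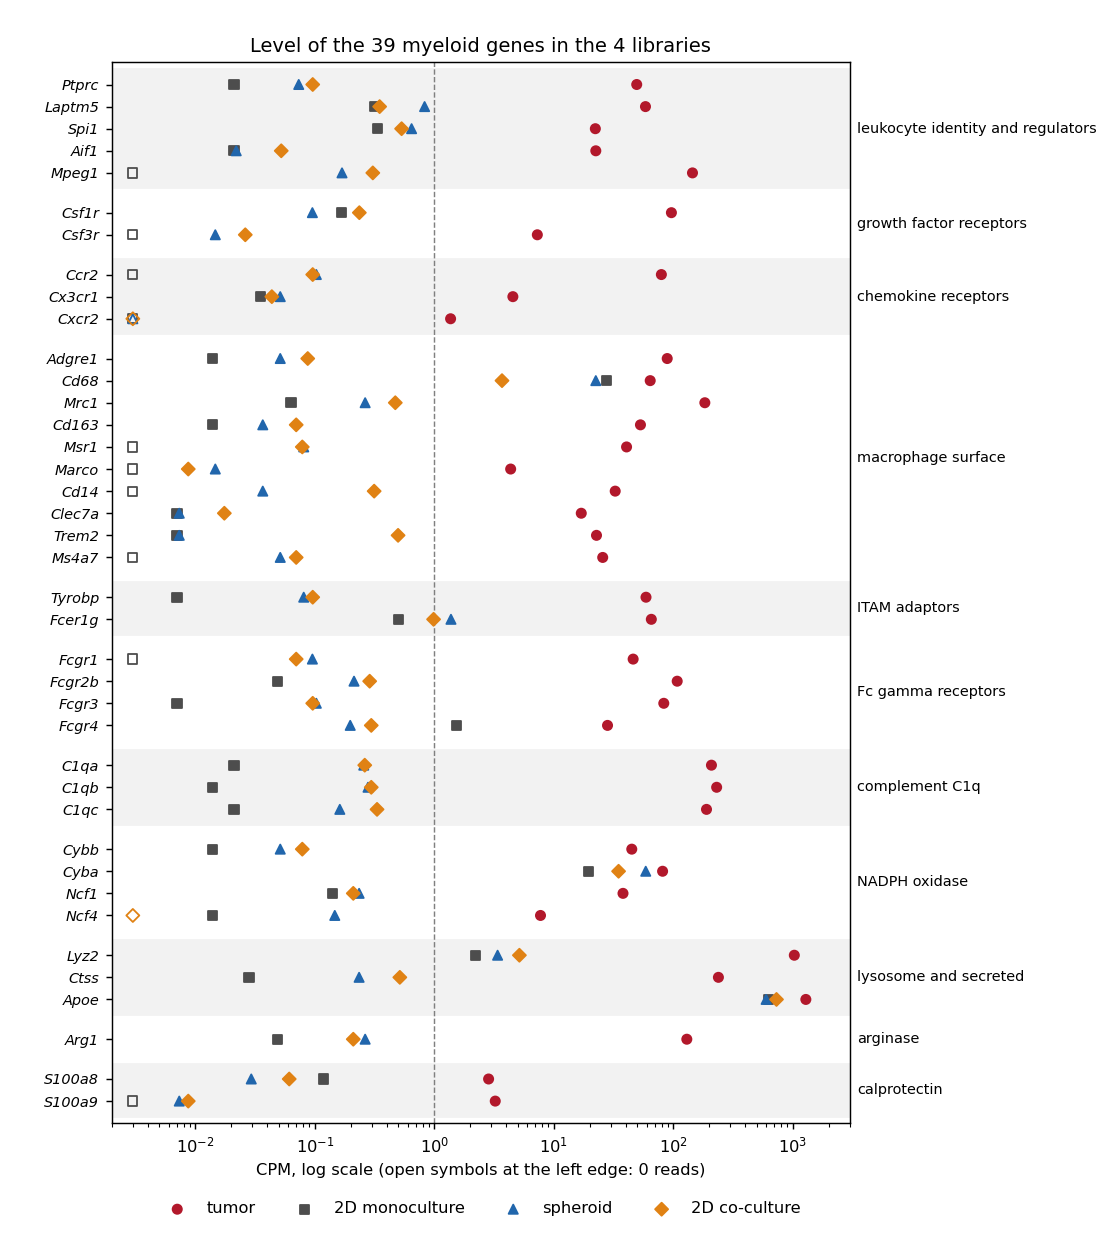
Level of each of the 39 myeloid genes in the 4 libraries, in CPM on a log axis, grouped by role, with a dashed line at 1 CPM. All 39 tumor points lie at or above 1 CPM, whereas the culture points lie under it except for 5 genes in the 2D monoculture, 5 for the spheroid and 4 for the 2D co-culture.

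Genes were counted as higher or lower when they differed by more than 2-fold after 1 CPM was added to both values. Between tumor and 2D monoculture, 39 of 39 myeloid genes were higher in the tumor, whereas 12.4% of the 19894 genes with a read in any library were higher and 11.8% lower. Of 12728 genes whose mean reached 1 CPM, 14.8% were higher in the tumor than in the 2D monoculture, 20.9% than in the 2D co-culture and 27.6% than in the spheroid. The median log2 ratio on this scale was 5.47, with a range from 1.03 (Apoe) to 8.33 (Lyz2), against 0.01 over all genes with a read. When no CPM was added and counts under 3 reads were set to 3 reads, which held for 19 genes in the 2D monoculture, the median log2 ratio was 10.08, and it was 8.55 against the 2D co-culture and 8.98 against the spheroid by the same rule. Against the 2D co-culture, 38 genes were higher in the tumor and Apoe was within 2-fold, with a background of 16.1% higher and 12.1% lower and a median log2 ratio of 5.27 with 1 CPM added. Against the spheroid, 38 genes were higher and Cyba was within 2-fold, with a background of 20.6% higher and 17.4% lower and a median of 5.03. These 3 comparisons share the tumor library. In bulk RNA, a larger number of cells of a type and more RNA per cell cannot be told apart.

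Markers of other host cell types were higher in the tumor library together with the myeloid genes. Of the marker lists, 8 of 8 endothelial, 8 of 9 fibroblast, 5 of 5 skeletal muscle and 4 of 4 adipocyte genes were higher in the tumor than in the 2D monoculture. Their summed levels in the tumor were 285 CPM, 2728 CPM, 4293 CPM and 791 CPM, against 3.17 CPM, 17.6 CPM, 4.75 CPM and 0.674 CPM in the 2D monoculture. Markers of other leukocytes had smaller tumor sums than the lists above. The sums were 7.86 CPM for 8 T and NK cell genes and 2.93 CPM for 4 B cell genes. They were 17.4 CPM for 6 dendritic cell genes, 28.0 CPM for 5 mast cell genes and 5.17 CPM for 6 neutrophil granule genes. For the 2D monoculture, the sums of the same lists were 0.14, 0.295, 7.5, 0.00702 and 0.126 CPM. The higher genes numbered 4, 1, 4, 4 and 1 in these lists, and 0 of 4 in the keratinocyte list, whose sum was 1.11 CPM. The dendritic cell list also summed to 15.3 CPM for the spheroid and 10.7 CPM for the 2D co-culture, mostly from Zbtb46. That gene had 4.28 CPM in the tumor and more in every culture. Its culture levels were 7.47 CPM (2D monoculture), 15.2 CPM (spheroid) and 10.6 CPM (2D co-culture). The part of each cell type in the values of the myeloid genes was not tested.

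The 5 genes of leukocyte identity were between 22.3 and 145 CPM in the tumor and at most 0.337 CPM in the monolayer, where Ptprc, Aif1 and Mpeg1 had at most 3 reads and Spi1 and Laptm5 had 48 and 45. Ptprc encodes CD45, the phosphatase on the surface of all leukocytes. It had 49.5 CPM in the tumor library, 0.0211 CPM in the 2D monoculture, and 0.0734 and 0.0961 CPM in spheroid and 2D co-culture. The tumor was thus the only library with more than 11 reads, and its ratio to the 2D monoculture, where 3 reads were counted, was 2351 (interval 804 to 11401). Spi1, the gene of PU.1, had 22.3 CPM in the tumor, against 0.337 CPM in the 2D monoculture, 0.646 CPM in the spheroid library and 0.533 CPM in the 2D co-culture. It was the gene of this role with the smallest ratio of tumor to 2D monoculture, 66.1-fold (interval 49.8 to 89.9). Laptm5, which encodes a lysosomal membrane protein of blood cells, had 58.6 CPM in the tumor and 0.316, 0.83 and 0.349 CPM in the 2D monoculture, the spheroid and the 2D co-culture. Mpeg1, the gene of the pore-forming protein perforin-2, had 145 CPM in the tumor and no read in the 2D monoculture. It had 0.169 CPM in the spheroid library and 0.306 CPM in the 2D co-culture. The lower interval limit of its ratio of tumor to 2D monoculture was 5585-fold. Aif1, which encodes the actin-binding protein IBA1, had 22.5 CPM in the tumor and at most 6 reads in any culture.

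Growth factor and chemokine receptors spanned a wide range in the tumor, from 16.7 CPM per kilobase of exon for Csf1r and 11.8 for Ccr2 to 2.02 for Csf3r and 0.451 for Cxcr2, with Cx3cr1 between the last 2. Csf1r had 96.6 CPM in the tumor library, 0.168 CPM in the 2D monoculture, and 0.0955 and 0.236 CPM in spheroid and 2D co-culture, a 573-fold higher level in the tumor than in the 2D monoculture (interval 385 to 895). Its few culture reads may not all be its own, because 873 bp of its exons overlap exons of Hmgxb3 on the opposite strand, which had 10669 reads in the 2D monoculture, and the strand setting of the counting is not given in the sources used here. Csf3r, the receptor of the neutrophil growth factor G-CSF, had 7.29 CPM in the tumor and between 0 and 3 reads in the cultures. Per kilobase of exon, Csf1r stood at 8.28 times Csf3r in the tumor.

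Ccr2, which brings monocytes into tissue, had 79.6 CPM in the tumor, no read in the 2D monoculture, 0.103 CPM in the spheroid library and 0.0961 CPM in the 2D co-culture. The lower interval limit of its ratio of tumor to 2D monoculture was 3072-fold. Cx3cr1, the fractalkine receptor of patrolling monocytes and resident macrophages, had 4.55 CPM in the tumor, against 0.0351 CPM in the 2D monoculture, 0.0514 CPM in the spheroid library and 0.0437 CPM in the 2D co-culture, with at most 7 reads in each culture. Cxcr2, the neutrophil receptor, had 1.37 CPM in the tumor and was the only member with no read in all 3 cultures. Of the ligands of these receptors, 7 of 7 were higher in the tumor than in the 2D monoculture. Ccl2, the main ligand of CCR2, had 65.7 CPM in the tumor, no read in the 2D monoculture, 0.169 CPM in the spheroid library and 8.16 CPM in the 2D co-culture. Ccl7, another CCR2 ligand, had 55.3 CPM in the tumor, no read in the 2D monoculture, 0.184 CPM in the spheroid library and 3.01 CPM in the 2D co-culture. Among 6 genes of myeloid growth factors and their receptors, 3 were higher in the tumor than in the 2D monoculture and none was lower. Csf1 itself had 25.1 CPM in the tumor and 11.4, 28.4 and 57.5 CPM in the 2D monoculture, the spheroid and the 2D co-culture, which was the only library well above the tumor. Csf2ra, a receptor chain for GM-CSF, was present in all libraries with 17.3 CPM in the tumor library, 10.8 CPM in the 2D monoculture, and 33.3 and 13.9 CPM in spheroid and 2D co-culture, whereas its partner chain Csf2rb had 19.8 CPM in the tumor and at most 0.0873 CPM in any culture.

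The 10 genes of macrophage surface proteins were all higher in the tumor than in the 2D monoculture, with log2 ratios from 1.19 (Cd68) to 7.44 (Mrc1) and a median of 4.91 with 1 CPM added. Mrc1, the mannose receptor, had 184 CPM in the tumor, against 0.0632 CPM in the 2D monoculture, 0.264 CPM in the spheroid library and 0.472 CPM in the 2D co-culture. Adgre1, the gene of the antigen F4/80 by which mouse macrophages are usually stained, had 89.1 CPM in the tumor and 0.014, 0.0514 and 0.0873 CPM in the 2D monoculture, the spheroid and the 2D co-culture. Cd163, the receptor for haptoglobin bound to haemoglobin, had 53.2 CPM in the tumor library, 0.014 CPM in the 2D monoculture, and 0.0367 and 0.0699 CPM in spheroid and 2D co-culture. For each of these 3 genes the tumor value lay at least 390-fold above the highest culture value, that of the 2D co-culture (390.3-fold for Mrc1, 1021-fold for Adgre1 and 761-fold for Cd163). The class A scavenger receptors differed in level, with 40.7 CPM of Msr1 and 4.36 CPM of Marco in the tumor and no read of either in the 2D monoculture. Per kilobase of exon this was 6.42 CPM for Msr1 and 2.27 CPM for Marco. Clec7a, the receptor for fungal beta-glucan, had 17.0 CPM in the tumor and 1 or 2 reads in each culture, and Ms4a7, a membrane protein of mature macrophages, had 25.7 CPM in the tumor and at most 8 reads in each culture.

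Trem2 and Cd14 had more reads in the 2D co-culture than in the other cultures. Trem2, a lipid receptor that signals through TYROBP, had 22.8 CPM in the tumor, against 0.00702 CPM in the 2D monoculture, 0.00734 CPM in the spheroid library and 0.498 CPM in the 2D co-culture. The 2D co-culture value rested on 57 reads, against 1 read in each of the other cultures, a ratio to the 2D monoculture of 70.9 (log2 interval 3.61 to 11.48). Cd14, the co-receptor for bacterial lipopolysaccharide, had 32.7 CPM in the tumor, no read in the 2D monoculture, 5 reads in the spheroid and 36 reads in the 2D co-culture, where its level was 0.314 CPM. Both genes were within 2-fold between the cultures once 1 CPM was added, so they were not counted as higher in the 2D co-culture. Fibroblast markers moved with these values, with 5 of 9 higher in the 2D co-culture than in the 2D monoculture, and also with those of Ccl2, Ccl7 and Csf1 there; their part was not tested.

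The adaptors that carry an ITAM, the tyrosine motif through which immune receptors signal, behaved differently in the cultures. Tyrobp had 59.2 CPM in the tumor and 0.00702, 0.0808 and 0.0961 CPM in the 2D monoculture, the spheroid and the 2D co-culture. Fcer1g, the common gamma chain of Fc receptors, had 65.6 CPM in the tumor library, 0.505 CPM in the 2D monoculture, and 1.38 and 0.987 CPM in spheroid and 2D co-culture. Per kilobase of exon, Fcer1g was at 0.845 of Tyrobp in the tumor but at 54.9 times Tyrobp in the 2D monoculture, 13.0 times in the spheroid library and 7.84 times in the 2D co-culture, where the Tyrobp values rest on 1 to 11 reads. Fcer1g was 2.73-fold higher in the spheroid than in the 2D monoculture (log2 interval 1.05 to 1.86). Of 10 genes of kinases, phosphatases and adaptors that act after these receptors, 9 were higher in the tumor than in the 2D monoculture and none was lower. Ptpn6, the phosphatase SHP-1, had 46.4 CPM in the tumor, against 9.70 CPM in the 2D monoculture, 9.51 CPM in the spheroid library and 15.3 CPM in the 2D co-culture, and Lyn, a kinase of the Src family, had 36.4 CPM, 9.48 CPM, 5.29 CPM and 7.26 CPM in the same order.

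The 4 Fc gamma receptors bind immunoglobulin G, and 3 of them need the gamma chain, whereas FCGR2B carries an inhibitory motif of its own. Fcgr2b, Fcgr4, Fcgr3 and Fcer1g lie close together on chromosome 1 (mm10, from 170958617 at the start of Fcgr2b to 171234365 at the end of Fcer1g). Fcgr2b had 108 CPM in the tumor and 0.0491, 0.213 and 0.288 CPM in the 2D monoculture, the spheroid and the 2D co-culture. Fcgr3, a low-affinity activating receptor, had 83.4 CPM in the tumor library, 0.00702 CPM in the 2D monoculture, and 0.103 and 0.0961 CPM in spheroid and 2D co-culture. Fcgr1, the high-affinity receptor, had 46.2 CPM in the tumor and no read in the 2D monoculture. It had 0.0955 CPM in the spheroid library and 0.0699 CPM in the 2D co-culture. The lower interval limit of its ratio of tumor to 2D monoculture was 1785-fold. Per kilobase of exon, Fcgr3 stood at 2.58 times Fcgr2b in the tumor. That ratio is uncertain because both genes share sequence: 9.58% of the runs of 50 bases in Fcgr3 transcripts also occur in Fcgr2b transcripts, and reads there could be split or dropped by the counting.

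Fcgr4, an activating receptor of intermediate affinity, departed from the other Fc gamma receptors in the monolayer. It had 28.2 CPM in the tumor, against 1.54 CPM in the 2D monoculture, 0.198 CPM in the spheroid library and 0.297 CPM in the 2D co-culture. The 219 reads in the 2D monoculture compare with at most 7 reads there for each of the other 3 receptors. The 2D monoculture value was 7.75-fold above the spheroid (interval 5.18 to 12.0) and 5.18-fold above the 2D co-culture (interval 3.6 to 7.67), and the spheroid was the only culture in which it was more than 2-fold lower than in the 2D monoculture with 1 CPM added. No run of 50 bases was shared between Fcgr4 transcripts and those of Fcgr1, Fcgr2b or Fcgr3.

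The 3 chains of complement C1q, which starts the classical complement pathway and is made mainly by macrophages, were among the genes with the largest ratios. C1qa had 209 CPM in the tumor and 0.0211, 0.257 and 0.262 CPM in the 2D monoculture, the spheroid and the 2D co-culture. C1qb had 231 CPM in the tumor library, 0.014 CPM in the 2D monoculture, and 0.279 and 0.297 CPM in spheroid and 2D co-culture. C1qc had 190.0 CPM in the tumor, against 0.0211 CPM in the 2D monoculture, 0.162 CPM in the spheroid library and 0.332 CPM in the 2D co-culture. Each chain had 2 or 3 reads in the 2D monoculture, between 22 and 38 in both co-cultures, and between 30839 and 37469 in the tumor. The ratios of tumor to 2D monoculture were 9914 for C1qa (interval 3392 to 48077), 16440.3 for C1qb (interval 4551 to 135758) and 9021 for C1qc (interval 3086 to 43745). The genes lie side by side on the minus strand of chromosome 4 (mm10, 136880129 to 136898803). Per kilobase of exon, C1qb stood at 1.06 times C1qa in the tumor, 1.04 times in the spheroid library, 1.08 times in the 2D co-culture and, on 2 and 3 reads, 0.637 times in the 2D monoculture. C1qa stood at 2.04 times C1qc in the tumor, 2.95 times in the spheroid library, 1.47 times in the 2D co-culture and, on 3 reads each, 1.86 times in the 2D monoculture.

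The other complement genes, 11 in all, were also each higher in the tumor than in the 2D monoculture. C3, the central component, had 209.8 CPM in the tumor and 0.182, 0.448 and 1.14 CPM in the 2D monoculture, the spheroid and the 2D co-culture, and C4b had 161 CPM, 0.274 CPM, 2.66 CPM and 0.638 CPM in the same order. In contrast, C1ra, a protease that binds C1q, had 29.7 CPM in the tumor library, 13.4 CPM in the 2D monoculture, and 24.6 and 30.0 CPM in spheroid and 2D co-culture. C2 had 116 CPM, 47.9 CPM, 93.3 CPM and 44.3 CPM in that order, and 161 bp of its exons overlap Zbtb12 on the opposite strand. C1ra and C2 were the complement genes above 10 CPM in the 2D monoculture.

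Lysozyme and cathepsin S were far higher in the tumor than in the monolayer, whereas apolipoprotein E was abundant in both. Lyz2, the lysozyme gene of macrophages and neutrophils, had 1032 CPM in the tumor, against 2.21 CPM in the 2D monoculture, 3.39 CPM in the spheroid library and 5.16 CPM in the 2D co-culture. The tumor was 467-fold above the 2D monoculture (interval 418 to 523), and Lyz2 was 2.33-fold higher in the 2D co-culture than in the 2D monoculture (log2 interval 1.02 to 1.43), or within 2-fold with 1 CPM added. Its near copy Lyz1 had 6.09 CPM in the tumor and at most 4 reads in each culture, although 15.4% of the runs of 50 bases in Lyz2 transcripts occur in Lyz1 as well. Ctss, a lysosomal protease of antigen-presenting cells, had 239 CPM in the tumor and 0.0281, 0.235 and 0.515 CPM in the 2D monoculture, the spheroid and the 2D co-culture.

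Apoe, which carries lipids out of macrophages and is also made by many other cells, had 1289 CPM in the tumor library, 629 CPM in the 2D monoculture, and 599.5 and 732 CPM in spheroid and 2D co-culture. The tumor was 2.05-fold above the 2D monoculture (interval 2.03 to 2.06), 2.15-fold above the spheroid and 1.76-fold above the 2D co-culture, and spheroid and 2D monoculture differed by a log2 ratio of -0.07, which became 0.05 with upper-quartile scaling. Correcting for the GC content and length of transcripts, an alternative chosen after seeing the data, raised the log2 ratio of tumor to spheroid to 2.6, that of tumor to 2D monoculture to 1.77 and that of tumor to 2D co-culture to 1.72, so that Apoe then exceeded 2-fold against all cultures. In the tumor, Lyz2 stood at 1.3 times Apoe per kilobase of exon, and in the 2D monoculture at 0.00571 times.

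**Figure D2:**
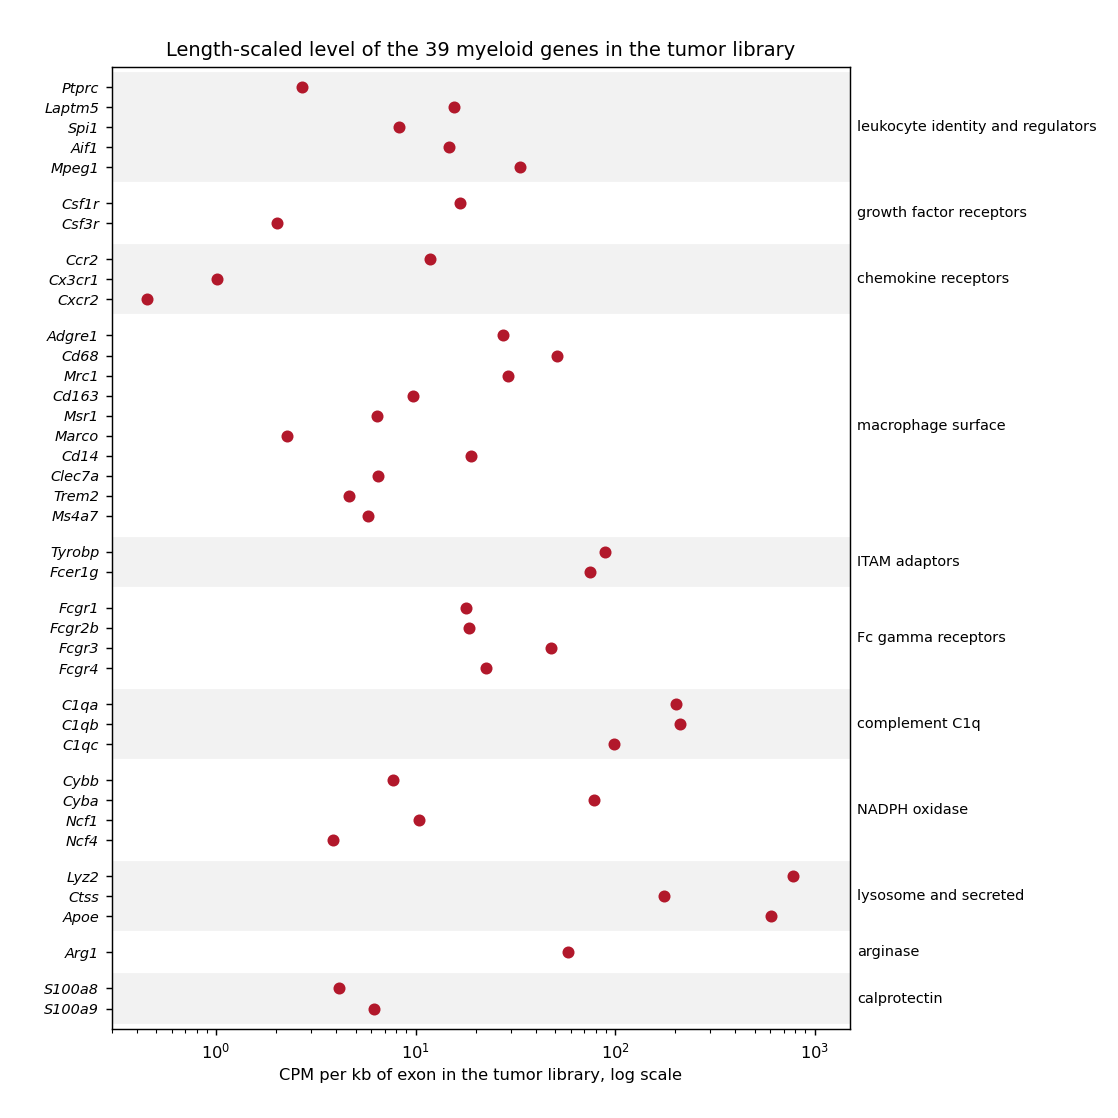
Level of the 39 genes in the tumor library per kilobase of exon, in CPM per kb on a log axis, grouped by role. Lyz2 (784 CPM per kb), Apoe (603) and the 3 C1q chains with Ctss have the highest levels, and Cxcr2 (0.451) has the lowest.

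Promoter sequence was examined for the core letters of the PU.1 binding motif, GAGGAA on the strand of the gene or TTCCTC as its reverse complement. RefSeq windows of 300 bases, 250 before and 50 after the start, matched 30 of the 39 genes. The letters occurred in 20 of these 30 genes (66.7%), against 8446 of all 27025 genes with such windows (31.3%). Within the 250 bases upstream of the start they occurred in 18 of 30 genes (60.0%) and in 25.9% of all genes. A match is a description of letters and not a binding site. Apoe, C1qb and Ctss were taken as the genes with a match in their windows and the highest tumor levels per kilobase of exon. Cd68, which also has a match, was added after its values were seen. C1qb and Ctss were nearly silent in the cultures, whereas the monolayer also expressed Apoe and Cd68. Because a match was required, the presence of the letters was fixed by the choice of these upstream bases. They are printed 5′ to 3′ on the strand of the gene, from 250 bases before the start to the base before it (GRCm38.p6), overlap no annotated exon, and carry GAGGAA in capitals.
Apoe (chr7:19699189-19699438, minus strand): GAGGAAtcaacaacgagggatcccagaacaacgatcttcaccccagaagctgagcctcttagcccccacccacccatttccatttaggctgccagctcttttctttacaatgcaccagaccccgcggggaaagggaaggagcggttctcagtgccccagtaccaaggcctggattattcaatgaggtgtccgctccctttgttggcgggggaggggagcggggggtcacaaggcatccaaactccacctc
C1qb (chr4:136886201-136886450, minus strand): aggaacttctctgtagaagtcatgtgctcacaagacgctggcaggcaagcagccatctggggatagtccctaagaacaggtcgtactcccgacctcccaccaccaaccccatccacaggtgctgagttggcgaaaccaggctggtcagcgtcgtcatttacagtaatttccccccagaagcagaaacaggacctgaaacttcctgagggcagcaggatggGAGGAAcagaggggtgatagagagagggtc
Ctss (chr3:95526536-95526785, plus strand): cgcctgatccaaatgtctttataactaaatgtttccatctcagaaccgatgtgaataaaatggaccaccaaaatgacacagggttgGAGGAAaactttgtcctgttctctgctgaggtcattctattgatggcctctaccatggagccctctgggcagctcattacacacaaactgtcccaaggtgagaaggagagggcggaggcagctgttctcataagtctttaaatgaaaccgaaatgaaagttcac
Cd68 (chr11:69666171-69666420, minus strand): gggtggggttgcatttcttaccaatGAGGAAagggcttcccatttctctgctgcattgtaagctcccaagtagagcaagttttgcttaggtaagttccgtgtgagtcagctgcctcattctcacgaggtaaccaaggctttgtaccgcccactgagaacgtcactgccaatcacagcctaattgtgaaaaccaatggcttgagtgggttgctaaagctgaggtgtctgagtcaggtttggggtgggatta

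In the printed bases, the letters stood at the far end of the Apoe window, 250 bases before the start, at 225 bases before the start of Cd68, at 164 bases before that of Ctss and at 30 bases before that of C1qb. The windows of Apoe, Ctss and Cd68 also held TTCCTC at or after the start, outside the printed bases. Another Apoe window, which was not printed, held GAGGAA at 132 bases before its start. Of the 5 genes that reached 1 CPM in the 2D monoculture, Apoe, Cd68 and Fcgr4 held a match in their windows, and those of Lyz2 and Cyba held none. Of further myeloid transcription factors, 6 of 8 were higher in the tumor than in the 2D monoculture and none was lower. Cebpa, a factor of granulocyte and monocyte development, had 52.5 CPM in the tumor, against 0.014 CPM in the 2D monoculture, 0.0587 CPM in the spheroid library and 0.0786 CPM in the 2D co-culture. Maf had 41.1 CPM, 8.09 CPM, 11.1 CPM and 7.30 CPM in the same order. Cebpb and Runx1, which many cell types use, were within 2-fold between tumor and 2D monoculture, with 25.8 CPM and 27.0 CPM for Cebpb and 15.1 CPM and 22.9 CPM for Runx1. Cebpb reached 92.5 CPM in the spheroid library and 31.0 CPM in the 2D co-culture. Of its exons, 312 bp overlap Tmem189 on the opposite strand. Tmem189 had 33422 reads in the spheroid library and 30326 reads in the 2D monoculture.

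The phagocyte NADPH oxidase joins a pair of membrane chains, encoded by Cybb and Cyba, with cytosolic subunits that include those of Ncf1 and Ncf4. Cybb, its catalytic chain, had 45.0 CPM in the tumor and 0.014, 0.0514 and 0.0786 CPM in the 2D monoculture, the spheroid and the 2D co-culture. Cyba, which also partners other NADPH oxidases outside the myeloid lineage, had 81.5 CPM in the tumor library, 19.6 CPM in the 2D monoculture, and 58.9 and 34.9 CPM in spheroid and 2D co-culture. The membrane chains thus separated in the cultures: Cyba stood at 10.1 times Cybb per kilobase of exon in the tumor, and at 7798 times in the 2D monoculture, where Cybb had 2 reads.

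Cyba was the only member counted as higher in the spheroid than in the 2D monoculture. It was 3.01-fold higher there (log2 ratio 1.59, interval 1.53 to 1.65), 1.78-fold higher in the 2D co-culture than in the 2D monoculture (log2 ratio 0.84, interval 0.77 to 0.91), and the tumor exceeded the spheroid by a log2 ratio of 0.47 (interval 0.43 to 0.51). Correcting for GC content and length changed Cyba's log2 ratio of spheroid to 2D monoculture to 0.79 and that of tumor to spheroid to 1.54, so that both comparisons crossed the 2-fold limit. Ncf1 had 38.0 CPM in the tumor, against 0.14 CPM in the 2D monoculture, 0.235 CPM in the spheroid library and 0.21 CPM in the 2D co-culture, and 408 bp of its exons overlap Gtf2ird2 on the opposite strand. Ncf4 had 7.75 CPM in the tumor library, 0.014 CPM in the 2D monoculture, 0.147 CPM in the spheroid (20 reads) and no read in the 2D co-culture. The GTPase gene Rac1, which acts with the oxidase and is used by all cells, had 229 CPM in the tumor and 259.7, 382 and 401 CPM in the 2D monoculture, the spheroid and the 2D co-culture.

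Cd68, the gene of a heavily glycosylated lysosomal protein used as a macrophage stain, was well above the counting limit in the monolayer. It had 64.2 CPM in the tumor library, 27.5 CPM in the 2D monoculture, and 22.5 and 3.69 CPM in spheroid and 2D co-culture. Tumor, monolayer and spheroid lay within 2.85-fold of each other, and the 2D co-culture stood apart as the lowest library. The tumor was 2.33-fold above the 2D monoculture (interval 2.25 to 2.42) and 17.4-fold above the 2D co-culture. Cd68 was 7.46-fold lower in the 2D co-culture than in the 2D monoculture (interval 6.74 to 8.26) and the only member counted as lower there, and it was 6.1-fold higher in the spheroid than in the 2D co-culture. With GC content and length corrected, tumor and 2D monoculture differed by a log2 ratio of 0.94, which is under 2-fold.

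**Figure D3:**
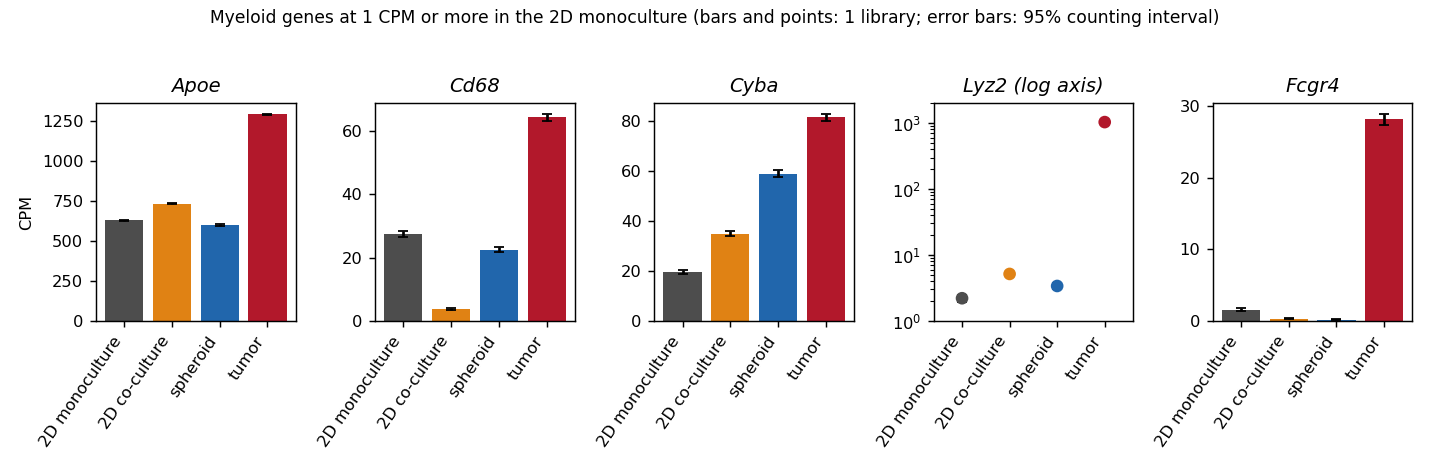
Level in CPM, with 95% counting intervals, of the 5 genes that reached 1 CPM in the 2D monoculture (Apoe, Cd68, Cyba, Fcgr4 and Lyz2) in each of the 4 libraries. Bars start at 0, and the Lyz2 values are points on a log axis. Cd68 falls to 3.69 CPM in the 2D co-culture, Cyba is highest among the cultures in the spheroid at 58.9 CPM, and Fcgr4 is highest among them in the 2D monoculture at 1.54 CPM.

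Arginase and calprotectin, which mark particular myeloid states, differed in level in the tumor, with 58.3 CPM per kilobase of exon for Arg1, 4.11 for S100a8 and 6.21 for S100a9. Arg1, which breaks down arginine and is induced in many tumor macrophages, had 130 CPM in the tumor, against 0.0491 CPM in the 2D monoculture, 0.264 CPM in the spheroid library and 0.21 CPM in the 2D co-culture, a 2645-fold higher level in the tumor than in the 2D monoculture (interval 1284 to 6581). Per kilobase of exon it stood at 64.1 times Nos2, the nitric oxide synthase that competes for arginine. S100a8 and S100a9, the calprotectin genes of neutrophils and monocytes, had 2.85 CPM and 3.24 CPM in the tumor. In the cultures S100a8 had 0.119 CPM in the 2D monoculture (17 reads), 0.0294 CPM in the spheroid library and 0.0611 CPM in the 2D co-culture, whereas S100a9 had no read in the 2D monoculture and 1 read in each of the other cultures. Of 7 further genes of macrophage activation, 5 were higher in the tumor than in the 2D monoculture and none was lower. Retnla and Chil3, both induced by interleukin-4, had 23.2 CPM and 18.1 CPM in the tumor and 1 read each in the 2D monoculture.

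Between the cultures, counts with 1 CPM added say little about most of the 39 genes, since 34 were under 1 CPM in the 2D monoculture and such genes can hardly pass 2-fold on this scale. With 0.1 CPM added, 13 genes were higher in the spheroid than in the 2D monoculture and 11 in the 2D co-culture. The share over all genes at 0.1 CPM added is not given here, so these counts show nothing particular to the 39 genes. The counts that follow are with 1 CPM added. From 2D monoculture to spheroid, 1 gene was higher (Cyba) and 1 lower (Fcgr4), with a background of 7.35% higher and 11.6% lower, and the median log2 ratio was 0.1. From 2D monoculture to 2D co-culture, none was higher and Cd68 was lower, with a background of 2.70% and 6.19%, and the median was 0.1. From 2D co-culture to spheroid, Cd68 alone was higher and none was lower, with a background of 6.29% and 5.70%, and the median was -0.02. These comparisons share libraries in pairs. By counting error alone, with nothing added, the interval of the ratio of spheroid to 2D monoculture lay above 0 on the log2 scale for 20 genes and below it for 4, spanned 0 for 14 and could not be given for Cxcr2, which had no read in either. For 2D co-culture to 2D monoculture it lay above 0 for 24 genes and below it for 2, with 12 spanning 0. For spheroid to 2D co-culture it lay above 0 for 5 genes and below it for 9. Over all genes with a read the intervals lay above and below 0 for 35.1% and 31.2% in the first comparison, for 31.8% and 31.2% in the second and for 31.7% and 33.1% in the last.

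Low levels in the cultures were further set against the tumor level of the same gene. For the 32 genes with at least 500 tumor reads and under 1 CPM in the 2D monoculture, the 2D monoculture held a median of 0.0211% of the tumor level (quartiles 0.0% and 0.0575%), the spheroid 0.14% (quartiles 0.109% and 0.212%) and the 2D co-culture 0.206% (quartiles 0.146% and 0.294%). The 1098 other genes under the same rule had medians of 0.333%, 0.326% and 0.829%. The 3 C1q chains lay between 0.0851% and 0.123% in the spheroid and between 0.126% and 0.175% in the 2D co-culture, and between 0.00608% and 0.0111% in the 2D monoculture. Genes of 3 other host tissues had medians of 0.174% for endothelial, 0.135% for adipocyte and 0.124% for skeletal muscle genes in the spheroid and of 0.148%, 0.151% and 0.158% in the 2D co-culture. In the 2D monoculture these medians were 0.142%, 0.0672% and 0.0294%, and they rested on 7, 4 and 3 genes. Fibroblast genes had 0.15% in the 2D monoculture, 0.234% in the spheroid library and 2.91% in the 2D co-culture, with Thy1 at 25.4% there. Where these reads came from was not tested.

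At or above 0.5% of the tumor lay 4 genes in the 2D monoculture, 6 for the spheroid and 7 for the 2D co-culture. Spi1 was the highest in each, with 1.51%, 2.9% and 2.39%, and Fcer1g, Laptm5 and Cx3cr1 were above 0.5% in all 3 as well. The spheroid added Ncf4 at 1.9% and Ncf1 at 0.618%. The 2D co-culture added Trem2 at 2.18%, Cd14 at 0.96% and Ncf1 at 0.552%. The counting intervals of Cx3cr1, which had 5 to 7 reads, and of Ncf1 included 0.5% in each of these cultures, as did those of Laptm5 in both 2D cultures.

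**Figure D4:**
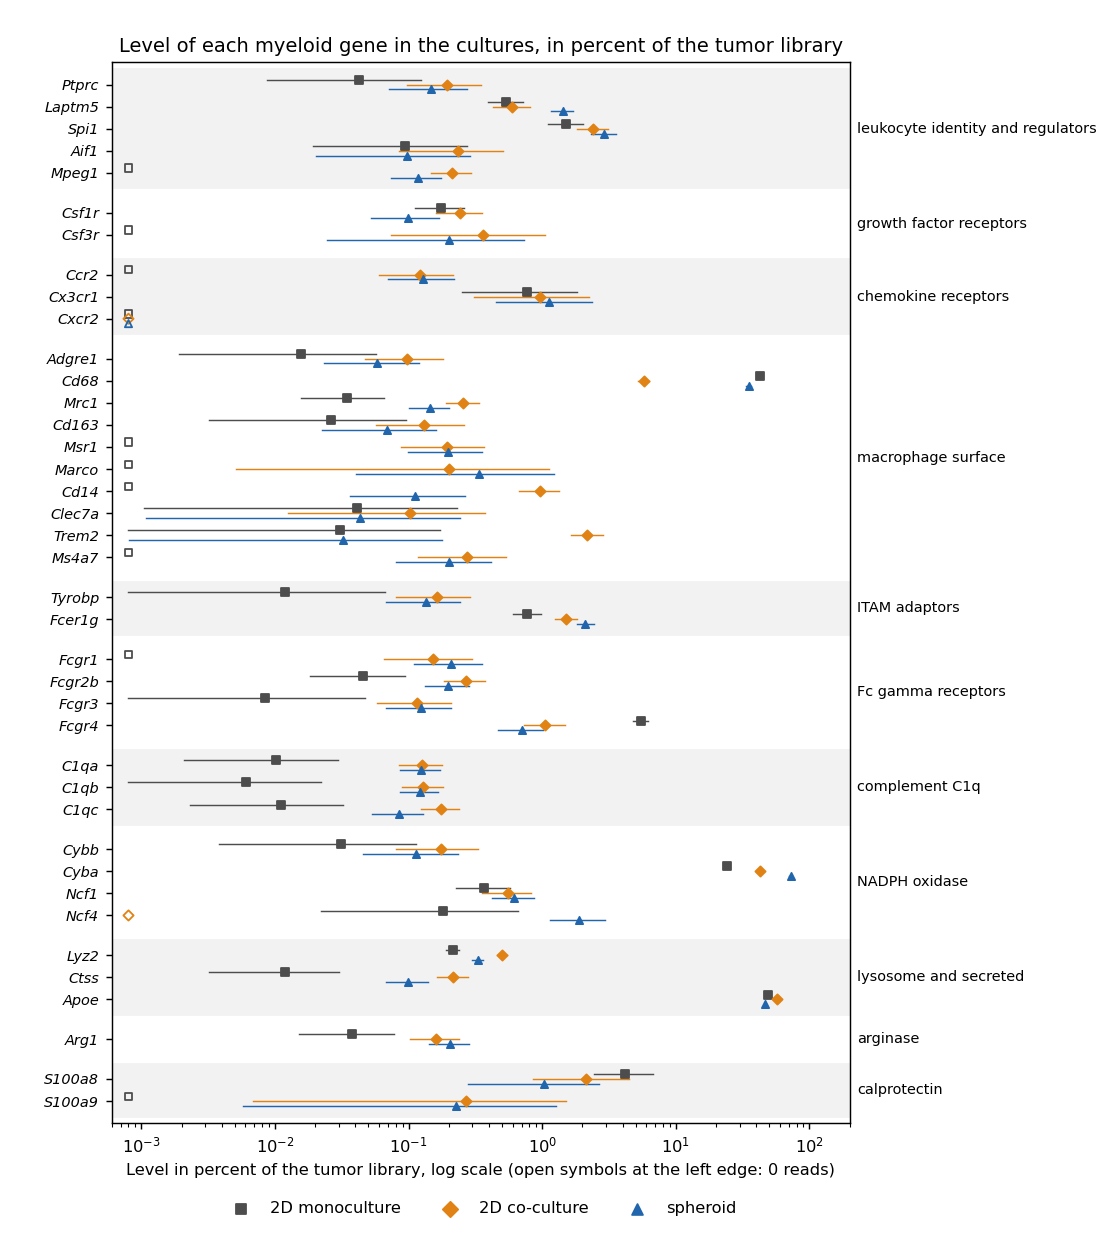
Level of the 39 myeloid genes in each culture as a percent of their level in the tumor library, on a log axis, with 95% counting intervals, some of which are cut at the left edge. Of the 32 genes with at least 500 tumor reads and under 1 CPM in the 2D monoculture, most lie between 0.1% and 0.5% in both co-cultures. Spi1, Fcer1g and Trem2 (2D co-culture only) are among those to the right of this range. Apoe, Cyba and Cd68, which are not among the 32, lie farthest right.

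The lists around the 39 genes can be read side by side for the tumor and the monolayer. Of 63 genes in 8 lists of ligands, signalling partners and related genes, the complement and chemokine lists were higher throughout, with median log2 ratios of 4.81 and 3.73, whereas the list of lysosomal and lipid-handling genes had a median of 0.01, with 2 of 11 genes higher and 3 lower.

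**Figure D5:**
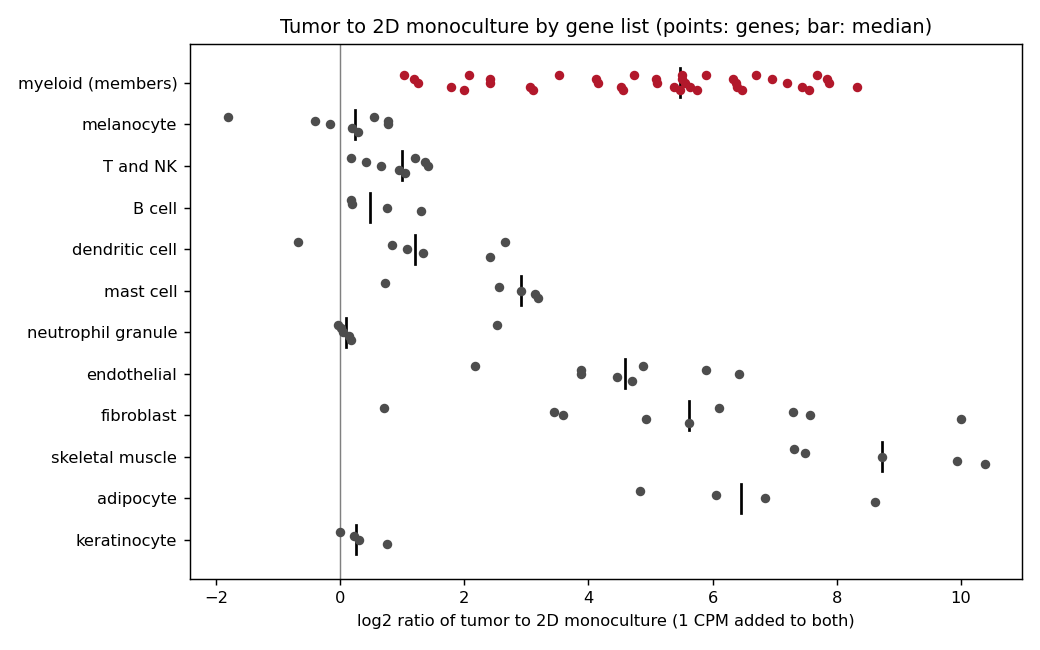
Log2 ratio of tumor to 2D monoculture, with 1 CPM added to both values, for the 39 myeloid genes together and for each marker list, with medians marked. The myeloid genes lie between 1.03 and 8.33 with a median of 5.47, and the melanocyte list has a median of 0.24.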

How the data were processed

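The authors deposited 1 table of read counts with a column for each of the 4 libraries, as whole numbers without normalization. The submitters' processing notes name Trimmomatic, STAR and featureCounts with mm10, with versions and strand setting not given in the sources used here. Libraries were prepared from oligo(dT)-selected RNA. The columns not matched to a sample numbered 0.

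Counts were scaled to CPM with TMM factors from edgeR 4.0.16 in R 4.3.3, which were 1.16 for the tumor, 0.984 for the 2D monoculture, 0.908 for the spheroid and 0.963 for the 2D co-culture. DESeq2 1.42.0 size factors, total counts and upper quartiles were alternatives. Other steps used scipy 1.17.1, pandas 2.3.3 and numpy 2.4.6 in Python 3.11.15, and were tested on simulated data. CPM intervals are Clopper-Pearson intervals, and ratio intervals come from exact binomial intervals. The GC and length correction subtracted the median log2 ratio of each of 10 by 10 classes. Replicate simulations such as those of NOISeq were not used here. Coordinates and exon lengths are from GENCODE release M21, promoters from RefSeq.

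The 39 genes, the 8 partner lists and the 11 marker lists were chosen with earlier results of these data known. Every member was named; of the partner lists, the 2 genes with the highest tumor level and each gene of at least 10 CPM in the 2D monoculture, except 2 genes that are not reported here.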

Additional observations from a re-analysis of the deposited data

How the results depend on the processing

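No paired analysis was possible because only 1 library was made per condition. Members higher in the tumor were counted alike, within 1.5 times, under every alternative run. The medians of tumor to 2D monoculture, 2D co-culture and spheroid moved to 8.36, 7.25 and 7.82 with 0.1 CPM added and to 3.32, 3.3 and 3.31 with 5 CPM added. Members higher in the spheroid than in the 2D monoculture numbered 13 with 0.1 CPM added, 2 at a fold over 1.5, 0 at a fold over 4, 0 among members under 1 CPM in the 2D monoculture and 2 with the correction for GC content and length, which was chosen after seeing the data and turned the median to -0.06. Members higher in the 2D co-culture than in the 2D monoculture numbered 11 with 0.1 CPM added, where the median was 0.72, 2 at a fold over 1.5 and 1 with upper quartiles. Members higher in the spheroid than in the 2D co-culture numbered 3 with 0.1 CPM added, 2 at a fold over 1.5 and 0 among members under 1 CPM in the 2D monoculture. Members expressed in the 2D monoculture numbered 11 at a level of 0.1 CPM and 3 at 10 CPM. The log2 ratio of Apoe between spheroid and 2D monoculture reversed to 0.05 with upper quartiles. Before any CPM was added, total count scaling shifted every log2 ratio of a comparison by the same amount. The shift was 0.24 for tumor to 2D monoculture, 0.27 for tumor to 2D co-culture and 0.36 for tumor to spheroid. With upper quartiles it was 0.25, 0.13 and 0.13. Smaller added values raise ratios of genes near 0 by construction, and the counts with 0.1 CPM added stand without a share over all genes. For the other moves the cause was not tested. In the 2D monoculture, 23 members had 3 reads or fewer, which widens their intervals.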

Other observations

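Lysosomal and lipid-handling genes, 11 in all, ranged from 1.96 to 10389.7 CPM in the monolayer. Lpl and Spp1, named here after their values were seen, were the 2 genes higher in the tumor, with 124 and 179.7 CPM there against 1.96 and 6.42 CPM in the 2D monoculture. Gpnmb, a glycoprotein of melanosomes and of lipid-laden macrophages, had 1772 CPM in the tumor, against 10389.7 CPM in the 2D monoculture, 4624 CPM in the spheroid library and 5483 CPM in the 2D co-culture. Lgals3, the gene of galectin-3, had 363 CPM in the tumor and 1871, 658 and 275 CPM in the 2D monoculture, the spheroid and the 2D co-culture. Both were lower in the tumor than in the 2D monoculture, by log2 ratios of -2.55 and -2.36 with 1 CPM added. The cathepsin genes did not move together, with Ctsd at 1148 CPM in the tumor and 2731 CPM in the 2D monoculture, Ctsb at 1379 CPM and 1369 CPM, and Ctsl at 383 CPM and 199 CPM.

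Of the lipid transport genes, Abca1 differed between the cultures and Lrp1 varied little. Abca1, which exports cholesterol to apolipoproteins, had 51.6 CPM in the tumor library, 65.5 CPM in the 2D monoculture, and 3.19 and 11.2 CPM in spheroid and 2D co-culture. Lrp1, an endocytic receptor, stayed between 99.0 CPM and 119.8 CPM. Cd9, a tetraspanin, had 52.7 CPM in the tumor, against 32.2 CPM in the 2D monoculture, 72.6 CPM in the spheroid library and 63.1 CPM in the 2D co-culture. Cxcl1, a ligand of CXCR2 named here after its values were seen, had 4.85 CPM in the tumor and 0.0912 and 0.463 CPM in the 2D monoculture and the spheroid. Of the 7 chemokine ligands, it alone had a higher level in a culture than in the tumor. In the 2D co-culture it stood at 206% of its tumor level. Fibroblast markers were also higher in that library, and their part was not tested.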
